A study of Mus musculus with 39 samples.

Results

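Collagen chain genes were followed in the endoneurium of the mouse sciatic nerve after crush injury. A gene was a member if it was protein coding and its GENCODE mouse symbol was Col, a number, the letter a and a number, as in Col1a1. The rule used no measured value. It gave 44 of the 55573 genes in the count table, and 41 of them passed the filter on low counts, as did 18442 genes in all. The other 3 members, Col10a1, Col19a1 and Col25a1, never exceeded 5, 9 and 15 counts in a library and were not tested.

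Each collagen molecule is a triple helix of 3 alpha chains, and every member encodes 1 such chain. Fibrillar chains (types I, II, III, V, XI, XXIV and XXVII) build the ropes that give a tissue its strength, and fibril-associated chains (types IX, XII, XIV, XVI, XIX, XX and XXII) sit on the fibril surface. Type IV chains form the sheet of the basement membrane, which in nerve wraps every Schwann cell and axon unit and guides axons that regrow after a crush. Type VI makes beaded filaments, types VIII and X make short-chain networks, and type VII makes anchoring fibrils. Types XV and XVIII (multiplexins) border basement membranes, and types XIII, XVII, XXIII and XXV span the cell membrane. Schwann cells, endoneurial fibroblasts, vessel cells and perineurial cells are all known to make collagens.

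The mice were on a C57BL/6 background, 2 to 4 months old and of both sexes. Control animals (Lepr-ctrl) were Lepr fl/fl and carried floxed alleles of the leptin receptor gene with no Cre. Knockout animals (Lepr-cKO) were Lepr fl/fl::Dhh-Cre, in which the Dhh promoter drives Cre in Schwann cells. Nerves are named by their label codes, whose prefixes (SLRKO2wpc in both genotypes, WT and KO at 4 wpc) are kept as given. One sciatic nerve was crushed and the uninjured contralateral nerve served as healthy control, at 2 or 4 weeks post crush (wpc). There were 5 healthy and 5 injured Lepr-ctrl nerves at 2 wpc, and 6 healthy and 5 injured Lepr-cKO nerves. At 4 wpc there were 5 healthy and 4 injured nerves of each genotype. The 39 libraries came from 22 animals, 17 of which gave both nerves, and the perineurium had been stripped off. A contralateral nerve is not a nerve of an uninjured mouse, and no such group was analysed here.

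The libraries held 10905806 to 45016322 counts assigned to genes, and the injured nerves at 4 wpc were the shallowest (10905806 to 25923752). Levels are in CPM, counts scaled to a common library size, and levels of different genes are compared only as CPM per kilobase of exon. The labelled tissue was checked against 8 Schwann cell markers, whose summed level was 84031 to 115570 CPM in healthy and 11073 to 78794 CPM in injured nerves. Mitochondrial transcripts took 1.92 to 4.25% of counts in healthy and 2.95 to 33.0% in injured nerves. Injured nerve SLRKO2wpc144i (Lepr-ctrl, 2 wpc) and injured nerve SLRKO2wpc135i (Lepr-cKO, 2 wpc) had the highest mitochondrial shares, 33.0% and 29.7%, and injured nerve KO-169Sni (Lepr-cKO, 4 wpc) the lowest, 2.95%. Injured nerve SLRKO2wpc126i (Lepr-cKO, 2 wpc) held 38579 CPM of 8 skeletal muscle markers, against at most 32.2 CPM in every other library, and all 8 were called higher with injury in that group. Lepr was counted over the whole gene and all cells, so neither the deleted part nor Schwann cells were measured on their own, and the deletion was not checked. The counts ran from 5.79 to 14.7 CPM in healthy and from 20.8 to 121 CPM in injured nerves, and no difference between genotypes was called in them (edgeR adjusted p from 0.362 to 1).

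In healthy nerve the 5 chains with the highest mean level were of types I, IV and V. In the healthy Lepr-ctrl nerves at 2 wpc Col1a1 stood at 222 ± 55.3 CPM per kb (SD, n = 5), Col1a2 at 193 ± 29.1 and Col5a3 at 178.8 ± 28.7, with Col3a1 at 115 ± 46.5. The first 3 of these did not differ beyond their spread. In CPM without length scaling Col1a2 was above Col1a1 in each of these nerves (2172 to 3019 against 1139.6 to 2057 CPM). Their order thus depends on the exon lengths used. Col4a1, a chain of the common basement membrane heterotrimer, followed at 175.8 ± 17.0 CPM per kb and its partner Col4a2 at 134 ± 16.2. Col23a1, a transmembrane collagen, was at 114 ± 6.33 CPM per kb, above Col5a1 at 52.2 ± 4.02 and Col24a1 at 43.0 ± 7.75. At the other end Col6a5, a beaded filament chain, was at 0.023 ± 0.022 CPM per kb, and the transmembrane chain Col17a1 at 0.208 ± 0.038. Calls on the low chains rest on few counts.

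The summed level of all 44 members overlapped between healthy and injured Lepr-ctrl nerves at 2 wpc and was lower in the injured ones at 4 wpc. Its median in Lepr-ctrl was 1527 CPM per kb in healthy nerves at 2 wpc (1449 to 1920) and 1769 in injured ones (1015 to 1996), and the groups overlapped. At 4 wpc it was 1887 in healthy nerves (1654 to 2003) and 1028 in injured ones (870.5 to 1195), with no overlap. In Lepr-cKO at 4 wpc the injured nerves ran from 953.4 to 2422 CPM per kb, around the healthy range of 1418 to 1836. The lowest injured sum at 2 wpc was in nerve SLRKO2wpc144i, and the highest of all was in nerve KO-169Sni.

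**Figure D1:**
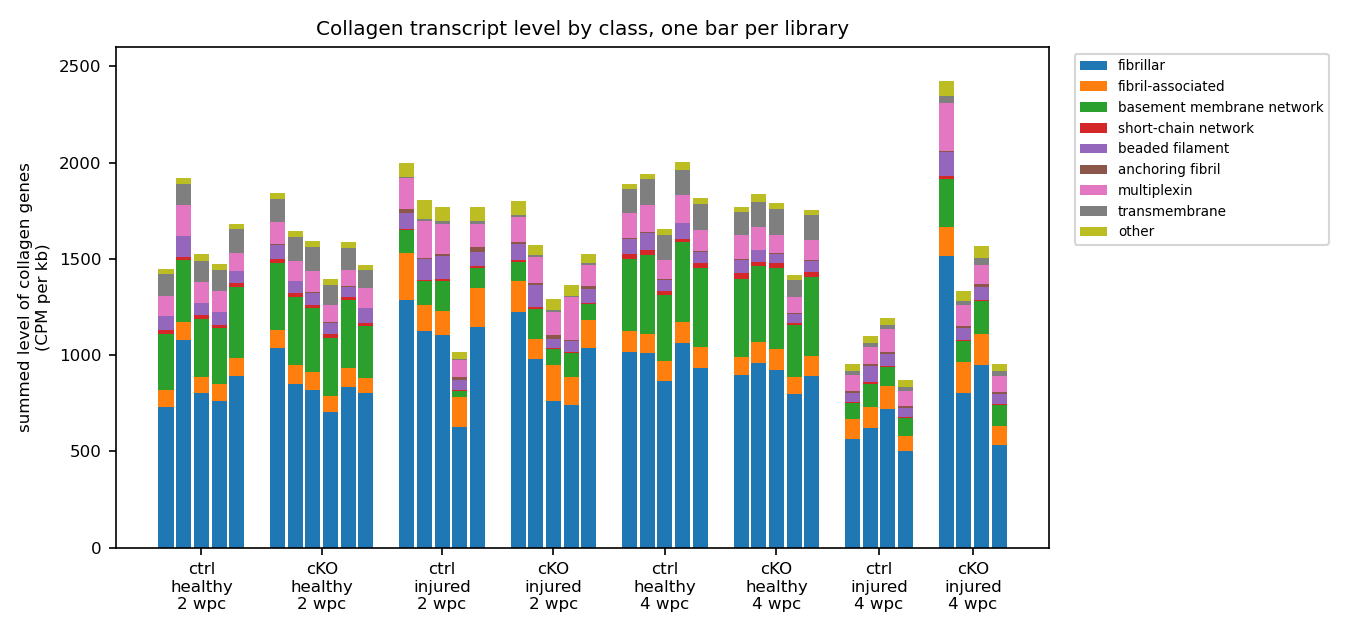
Summed level of the collagen chain genes in CPM per kb (vertical axis), 1 bar for each of the 39 libraries, grouped by genotype, nerve and time, with colours for the structural classes. The 4 injured Lepr-ctrl nerves at 4 wpc reach 870.5 to 1195, below all healthy nerves of that genotype and time, and the basement membrane and transmembrane portions are smaller in injured nerves.

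The make-up of the sum also differed between healthy and injured nerves. In Lepr-ctrl the basement membrane chains made up a median of 19.8% of it in healthy nerves at 2 wpc (16.8 to 21.9%) and 5.96% in injured ones (3.16 to 8.70%). The transmembrane chains went from 7.41% (5.83 to 7.84%) to 0.522% (0.387 to 0.866%). Fibrillar chains went from 52.7% (50.6 to 56.1%) to 62.3% (61.7 to 64.7%), and fibril-associated chains from 5.65% (4.80 to 5.94%) to 11.5% (7.26 to 15.3%). Healthy and injured Lepr-ctrl nerves overlapped in none of these 4 classes at this time. In Lepr-cKO the fibrillar share overlapped, with 50.6 to 56.1% in healthy and 54.1 to 68.0% in injured nerves at 2 wpc and 50.6 to 56.3% and 56.0 to 62.5% at 4 wpc. At 4 wpc basement membrane chains stood at 20.7% in healthy and 10% in injured Lepr-ctrl nerves and transmembrane chains at 6.84% and 1.89%. In Lepr-cKO the injured medians at 4 wpc were 10.6% and 1.87%. The shares are relative to each other, so a class can gain share by the loss of another. Their size also depends on the exon lengths used.

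The comparison of injured with healthy nerves asks which chains change with crush. It was made within each genotype and time by edgeR's quasi-likelihood test, with a Benjamini-Hochberg adjusted p over all 18442 genes. A gene was called when its adjusted p was below 0.05 and its log2 fold change was beyond 1 in size. At 2 wpc in Lepr-ctrl 14 of the 41 members rose (34.1%, against 19.8% of all tested genes) and 11 fell (26.8%, against 14.3%). In Lepr-cKO 12 rose (29.3%, against 20.9%) and 11 fell (26.8%, against 13.4%). At 4 wpc 9 rose (22.0%, against 20.1%) and 14 fell (34.1%, against 15.9%) in Lepr-ctrl. In Lepr-cKO at 4 wpc 12 rose (29.3%, against 16.8%) and 9 fell (22.0%, against 10.8%). The members' median log2 fold change was 0.40 and 0.42 at 2 wpc and −0.29 and 0.26 at 4 wpc in Lepr-ctrl and Lepr-cKO, with 0.08, 0.10, 0.02 and 0.06 over all tested genes.

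The 4 comparisons share no library. In them 7 members rose every time (Col6a5, Col7a1, Col8a1, Col9a1, Col16a1, Col17a1 and Col27a1) and 8 fell every time (Col2a1, Col4a1, Col4a2, Col8a2, Col12a1, Col14a1, Col23a1 and Col24a1). No member was called in opposite directions. A further 11 were called in none of them, among them Col1a1, Col3a1, Col5a1, Col15a1 and the 3 main type VI chains Col6a1, Col6a2 and Col6a3. The same counts over all tested genes are not given here, so these numbers do not tell whether members repeat more than other genes. Without nerve SLRKO2wpc144i the Lepr-ctrl counts at 2 wpc were 15 higher and 10 lower, and without nerve SLRKO2wpc126i the Lepr-cKO counts were 10 higher and 12 lower. Without nerve SLRKO2wpc135i they were 13 and 11, and without nerve KO-169Sni the Lepr-cKO counts at 4 wpc were 10 and 9. Without nerve KO-177Sni they were 14 and 9.

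Markers of the nerve's cell types moved in the same comparisons. In Lepr-ctrl at 2 wpc 5 of 8 Schwann cell and 5 of 8 mural cell markers fell, while 5 of 6 macrophage, 3 of 6 endothelial, 4 of 8 fibroblast and 3 of 6 perineurial markers rose. Of the fibroblast markers 1 fell, as did 1 of the perineurial ones. The summed fibroblast markers were nonetheless lower in 4 of the 5 injured nerves than in every healthy one, with 452.0 to 801 CPM (median 634) in healthy and 292 to 688 CPM (median 325) in injured nerves. The perineurial sum was 792 to 1168 CPM in healthy and 474 to 986 CPM in injured nerves. At 4 wpc the fibroblast sum was 333 to 549.5 CPM in healthy and 576 to 1076 CPM in injured Lepr-ctrl nerves. The summed mural markers went from 572 to 697 CPM in healthy to 85.5 to 482 CPM in injured nerves, and the macrophage markers from 57.8 to 88.0 to 234 to 481 CPM. All 6 adipocyte markers rose, from a sum of 0.341 to 0.767 CPM to 14.7 to 170 CPM. In bulk tissue fewer cells of a type and less RNA per cell cannot be told apart, and the part of these cell types in the collagen changes was not tested.

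**Figure D2:**
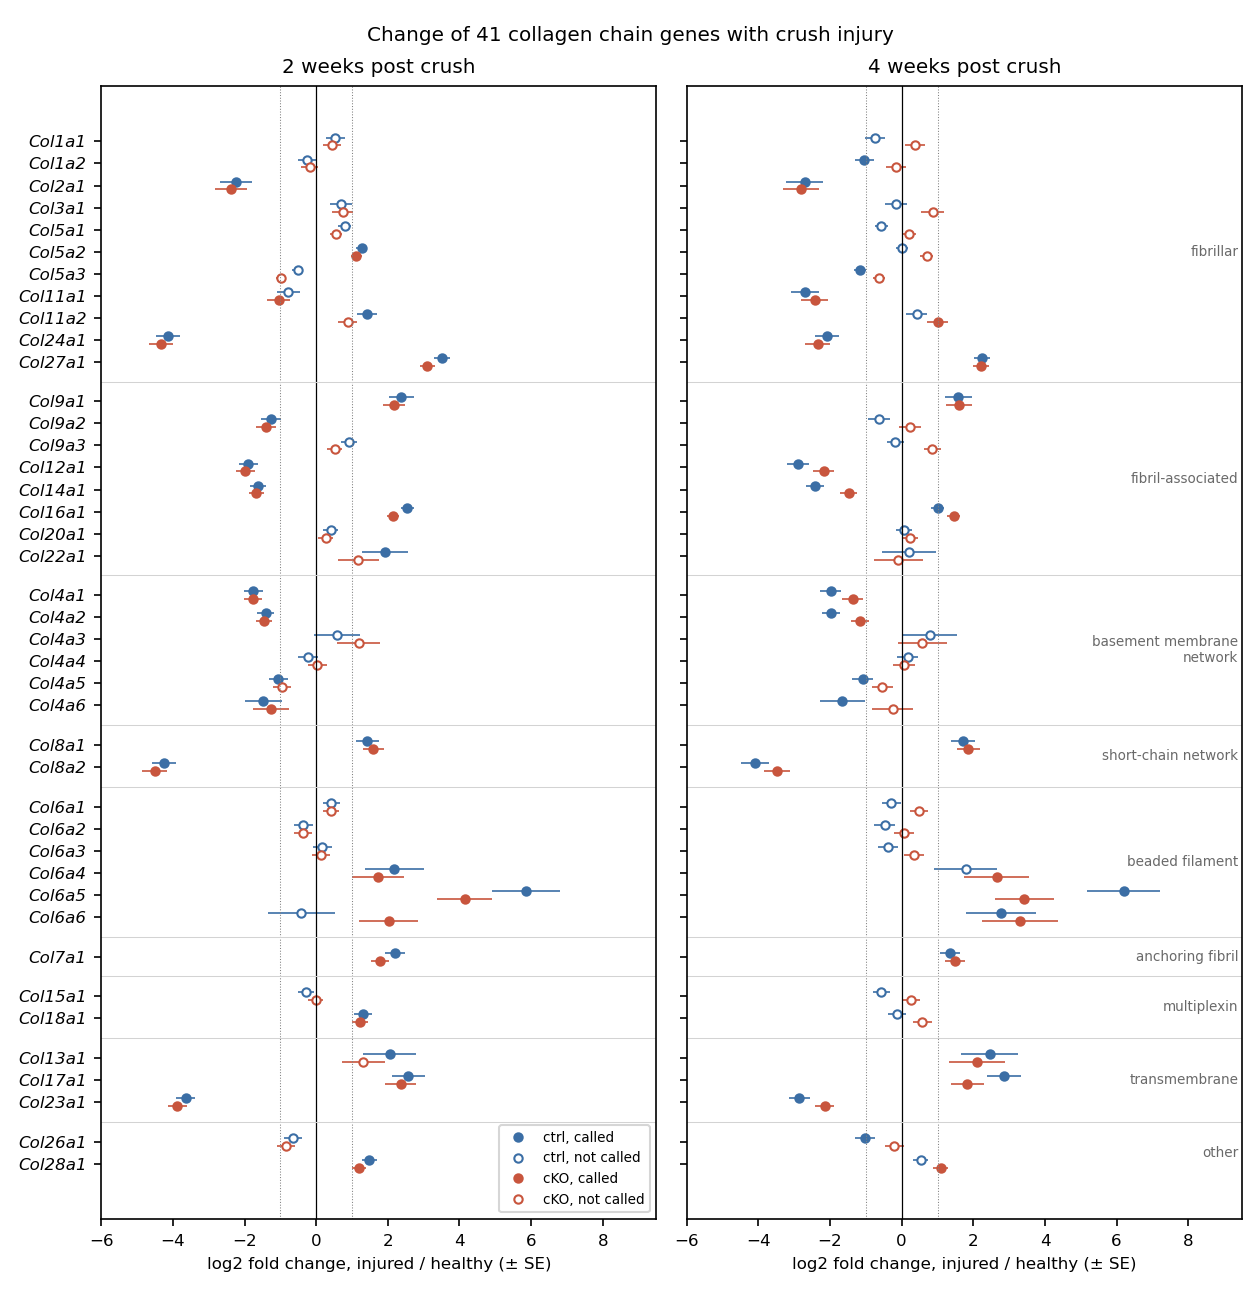
Log2 fold change of injured over healthy nerve (horizontal axis, ± SE) for the 41 tested members by structural class, at 2 wpc on the left and 4 wpc on the right, with Lepr-ctrl in blue, Lepr-cKO in red, filled points for calls and dotted lines at a log2 fold change of 1 in either direction. Col8a2 has the lowest value in all 4 comparisons (−4.51 to −3.47) and Col6a5 the highest (3.42 to 6.19).

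Type VIII collagen is a short-chain network collagen of vessel walls and corneal basement membrane, made of the chains of Col8a1 and Col8a2. The partner genes went in opposite directions after crush. Col8a2 stood at 63.1, 67.3, 68.6, 83.1 and 87.2 CPM in the healthy Lepr-ctrl nerves at 2 wpc and at 0.712, 2.58, 3.93, 5.81 and 6.16 CPM in the injured ones. It fell by 4.25 ± 0.35 on the log2 scale (SE; edgeR adjusted p = 1.16e-12), a 19.0-fold lower level. Col8a1 was at 13.4 to 25.8 CPM in healthy and 26.0 to 90.1 CPM in injured nerves, and rose by 1.43 ± 0.31 (adjusted p = 0.000182). All injured nerves were thus above all healthy ones for Col8a1 and below them for Col8a2. In Lepr-cKO at 2 wpc the changes were 1.59 ± 0.30 and −4.51 ± 0.34, and at 4 wpc they were 1.71 and −4.09 in Lepr-ctrl and 1.86 and −3.47 in Lepr-cKO. Col8a2 is the better measured of the pair in healthy tissue, with at least 1959 counts in each healthy Lepr-ctrl nerve at 2 wpc.

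The stretches before the start sites of the pair are shown because these partner chains changed in opposite directions. They are the 250 bases upstream of the RefSeq transcription start (GRCm38.p6), written 5′ to 3′ on the gene's strand, and capitals mark GC boxes (GGGCGG, searched on both strands). Col8a1 lies on the minus strand of chromosome 16 and its window is chr16:57754738-57754987, and the Col8a2 window is chr4:126286544-126286793 on the plus strand.
Col8a1: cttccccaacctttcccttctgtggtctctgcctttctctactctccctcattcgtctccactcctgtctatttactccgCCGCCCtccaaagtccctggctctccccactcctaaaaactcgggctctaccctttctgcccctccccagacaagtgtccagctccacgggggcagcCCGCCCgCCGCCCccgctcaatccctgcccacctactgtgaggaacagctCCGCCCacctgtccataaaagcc
Col8a2: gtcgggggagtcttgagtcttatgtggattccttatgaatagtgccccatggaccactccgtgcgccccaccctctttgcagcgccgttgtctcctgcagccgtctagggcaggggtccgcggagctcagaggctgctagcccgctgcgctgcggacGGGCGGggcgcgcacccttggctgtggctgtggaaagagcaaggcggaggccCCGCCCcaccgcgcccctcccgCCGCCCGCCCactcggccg
Both windows held 4 GC boxes, including an overlapping pair in Col8a2, and neither held a match to the AP-1 letters (TGANTCA) on either strand. Nor was there a CCAAT box. The other motifs searched on both strands, with no match in this pair, were the TATA box (TATAAA) and the letters of a STAT site (TTCNNNGAA). GC boxes were in 57.9% of the 38 member windows (35 members had a RefSeq entry) and in 32.7% of all 32851 windows of the same length. AP-1 letters were in 2.63% of member windows and 6.75% of all, CCAAT boxes in 34.2% and 33.8%, TATA boxes in 13.2% and 12.4% and STAT letters in 5.26% and 7.02%. A match describes the letters only.

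Among the fibrillar chains the minor chains Col27a1 and Col24a1 had the largest changes at 2 wpc, and no chain of types I and III was called at that time. Col27a1, whose chain forms thin fibrils in cartilage and developing tissue, stood at 75.3, 86.8, 91.6, 91.9 and 117 CPM in healthy Lepr-ctrl nerves at 2 wpc. In the injured nerves it was at 665, 848, 1198, 1212 and 1329.8 CPM, with no overlap. It rose by 3.51 ± 0.23 (adjusted p = 4.77e-15) in Lepr-ctrl and by 3.10 ± 0.21 in Lepr-cKO. At 4 wpc it was still higher by 2.23 ± 0.22 and 2.22 ± 0.22.

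Col24a1, a minor fibrillar chain best known from bone and cornea, went the other way. It was at 267, 286, 306, 376 and 404 CPM in healthy Lepr-ctrl nerves and at 9.64, 12.9, 15.9, 23.3 and 31.1 CPM in injured ones at 2 wpc. The fall was 4.14 ± 0.34 on the log2 scale (adjusted p = 1.46e-12) in Lepr-ctrl, and the change in Lepr-cKO was −4.32 ± 0.34. At 4 wpc the changes were −2.08 ± 0.34 and −2.35 ± 0.34. The gene is shown with Col23a1 because these 2 had the deepest falls after Col8a2 at 2 wpc. Their windows are chr3:145292222-145292471 and chr11:51289670-51289919, both on the plus strand of GRCm38.p6.
Col24a1: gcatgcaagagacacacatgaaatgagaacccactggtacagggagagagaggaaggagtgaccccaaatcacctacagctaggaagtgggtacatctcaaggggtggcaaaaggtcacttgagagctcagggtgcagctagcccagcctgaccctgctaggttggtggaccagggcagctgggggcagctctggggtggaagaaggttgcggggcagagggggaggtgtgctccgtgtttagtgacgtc
Col23a1: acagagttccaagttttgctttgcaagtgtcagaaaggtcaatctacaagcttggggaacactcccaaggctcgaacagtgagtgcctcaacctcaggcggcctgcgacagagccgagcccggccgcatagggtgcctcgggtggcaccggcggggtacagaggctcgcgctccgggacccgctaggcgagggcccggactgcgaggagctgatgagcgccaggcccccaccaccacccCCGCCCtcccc
The Col24a1 window held no letters of the 5 motifs, and the Col23a1 window held 1 GC box close to the start.

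The main fibrillar genes showed smaller differences. Col1a1, the alpha 1 chain of type I collagen, was at 1139.6, 1266, 1302, 1534 and 2057 CPM in healthy and at 1197, 1959, 2114, 2483 and 2830.4 CPM in injured Lepr-ctrl nerves at 2 wpc, so the groups overlapped. Its log2 fold change was 0.54 ± 0.26 (adjusted p = 0.0739), and that of Col1a2 was −0.25 ± 0.25. At 4 wpc Col1a2 fell by 1.04 ± 0.28 in Lepr-ctrl (adjusted p = 0.00146), a call that was lost (−0.94 at the least) when healthy nerve WT-168Snc or injured nerve WT-170Sni or WT-178Sni was left out. Col1a1 changed by −0.74 ± 0.28 there (adjusted p = 0.0228), short of the fold threshold. Col3a1, which makes the fine fibrils of soft tissue, had log2 fold changes of 0.69, 0.74, −0.16 and 0.87 in Lepr-ctrl and Lepr-cKO at 2 wpc and then at 4 wpc, none of them called.

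Type V collagen sets the diameter of type I fibrils, and its chains diverged. Col5a2 rose by 1.27 ± 0.16 in Lepr-ctrl (adjusted p = 2.78e-08) and by 1.12 ± 0.15 in Lepr-cKO at 2 wpc, from 271 to 346 CPM to 513 to 930.3 CPM in Lepr-ctrl. Col5a3, a chain known from Schwann cells, had −0.51 ± 0.15 and −0.98 ± 0.15 at 2 wpc, and fell by 1.17 ± 0.17 in Lepr-ctrl at 4 wpc (adjusted p = 2.06e-07). Its level there was 1535 to 1777 CPM in healthy and 679.6 to 847 CPM in injured nerves. Col5a1 was called in none of the 4 comparisons. Of the chains of cartilage fibrils, Col2a1 was lower in all 4 comparisons and Col11a1 was lower at 4 wpc. In Lepr-ctrl at 2 wpc the Col11a1 levels overlapped, at 53.5 to 148.5 CPM in healthy and 29.9 to 97.8 CPM in injured nerves. Col2a1 fell from 9.75 to 19.4 CPM to 0.0949 to 4.93 CPM in Lepr-ctrl at 2 wpc, by 2.23 ± 0.44, and Col11a1 fell by 2.70 ± 0.38 in Lepr-ctrl and 2.43 ± 0.37 in Lepr-cKO at 4 wpc. Of 6 chondrocyte markers 2 passed the low-count filter and 1 was called lower in each of the 4 comparisons. Their sum was 33.8 to 44.0 CPM in healthy and 0.610 to 1.37 CPM in injured Lepr-ctrl nerves at 2 wpc, as Col2a1 was lower too. Nearly all of it was Cnmd, the gene of a cartilage glycoprotein (33.3 to 43.6 and 0.0762 to 0.882 CPM). The defining marker Acan was at 0.343 CPM or less in every library. The part of such cells in these values was not tested.

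**Figure D3:**
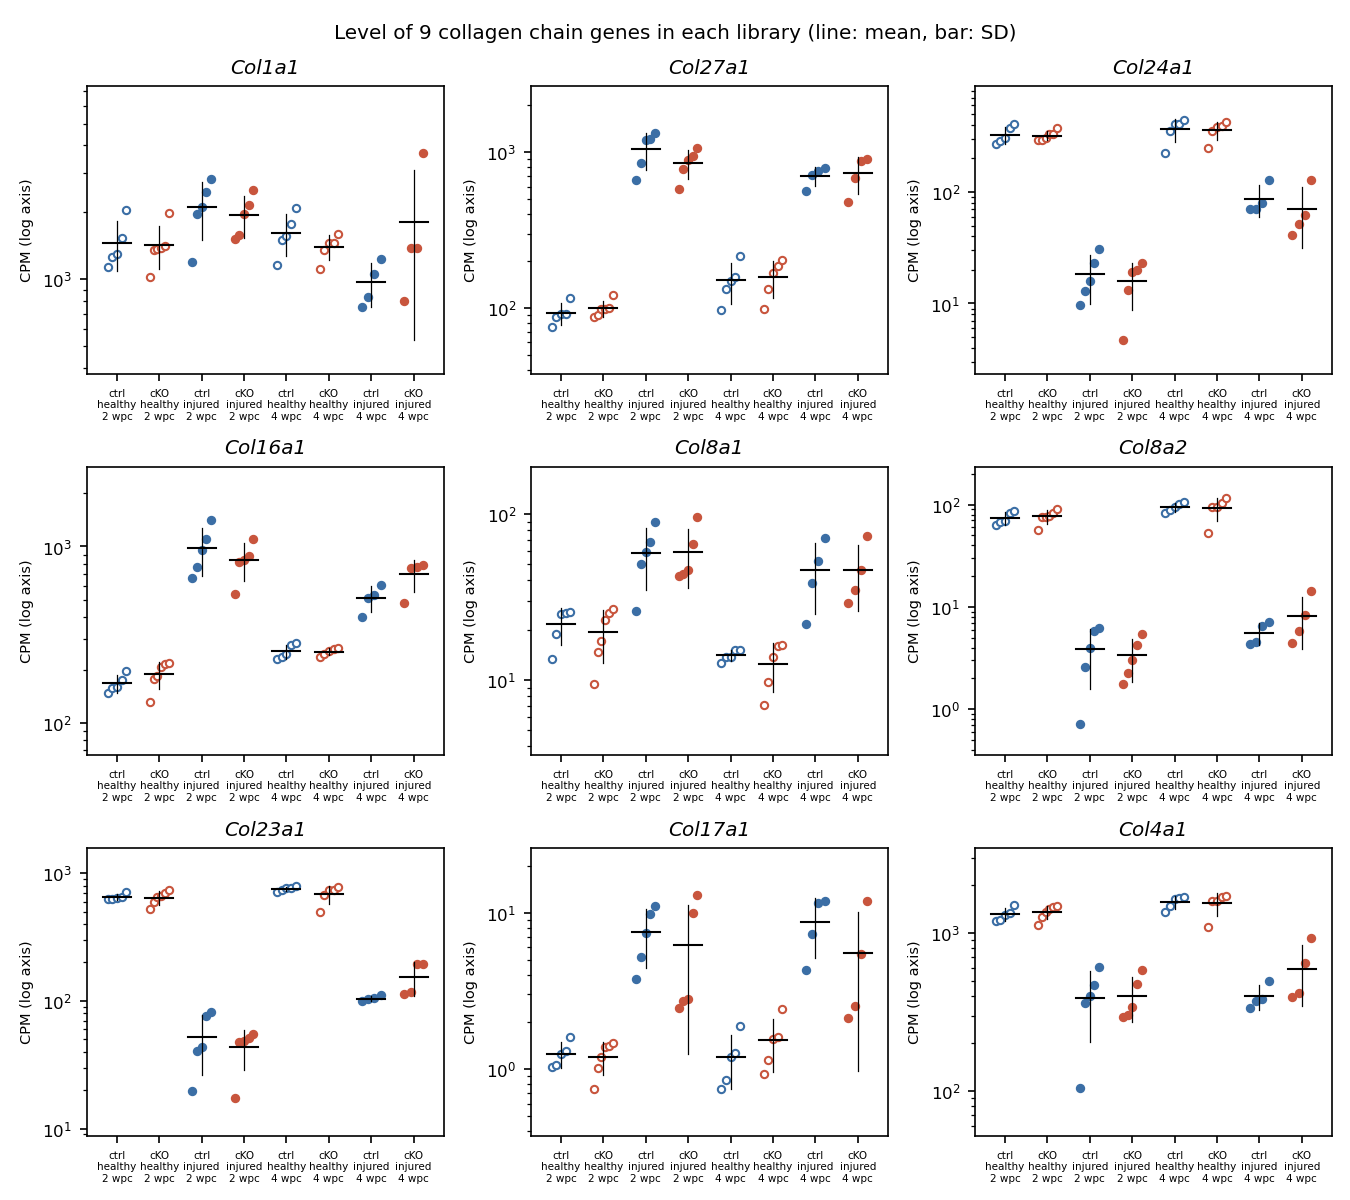
Level in CPM (vertical log axes) of 9 collagen chain genes in each library, by genotype, nerve and time, with open points for healthy and filled points for injured nerves, lines at the mean and bars for the SD. Col8a2, Col23a1, Col24a1 and Col4a1 lie lower in all injured nerves than in all healthy ones, Col27a1 and Col16a1 lie higher, and the Col1a1 groups overlap.

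Basement membrane chains were lower. Of the 6 type IV genes 4 fell and none rose in Lepr-ctrl at 2 wpc (14.3% of all tested genes fell) and at 4 wpc (15.9%). In Lepr-cKO 3 fell at 2 wpc (13.4% of all) and 2 at 4 wpc (10.8%). Col4a1 was at 1199 to 1511 CPM in healthy Lepr-ctrl nerves at 2 wpc and at 104, 359, 398, 470.4 and 610.2 CPM in injured ones, the lowest being nerve SLRKO2wpc144i. It fell by 1.76 ± 0.27 in Lepr-ctrl (adjusted p = 6.87e-07) and its change in Lepr-cKO was −1.76 ± 0.26. Its partner Col4a2 fell by 1.41 ± 0.23 and 1.45 ± 0.23. At 4 wpc both fell again, by 1.99 and 1.97 in Lepr-ctrl and by 1.37 and 1.15 in Lepr-cKO. Col4a3 and Col4a4, chains of specialised membranes such as that of the kidney glomerulus, were called nowhere. Mural cells also make type IV chains, and the sum of their markers was lower in all injured than in all healthy nerves in Lepr-ctrl at both times and in Lepr-cKO at 4 wpc. In Lepr-cKO at 2 wpc it was 239 to 967 CPM in injured nerves, the highest being nerve SLRKO2wpc126i, and 499 to 809 CPM in healthy ones. Some endothelial markers rose and some Schwann cell markers fell in Lepr-ctrl at 2 wpc. The part of any of these cell types in the type IV values was not tested.

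Type IV genes lie head to head in pairs, which is why their start regions are shown. The annotated first exons of Col4a1 (minus strand) and Col4a2 (plus strand) overlap by 22 bases at chr8:11312805-11312826, given here on the plus strand of GRCm38.
Col4a1 and Col4a2 overlap: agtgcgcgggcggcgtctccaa
Between Col4a4 (minus strand) and Col4a3 (plus strand) lie 71 bases at chr1:82586850-82586920, again on the plus strand.
Col4a4 to Col4a3: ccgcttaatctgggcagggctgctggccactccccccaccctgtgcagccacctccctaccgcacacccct
Col4a6 and Col4a5 are 1308 bases apart on chromosome X. Col4a5 fell by 1.06 ± 0.27 in Lepr-ctrl at 2 wpc (adjusted p = 0.000863) and by 1.08 ± 0.29 at 4 wpc. With the animal as a replicate block the first value was −0.91 (adjusted p = 0.000734) and short of the fold threshold, and Col4a6 was no longer called there (−1.28, adjusted p = 0.0516, against −1.47 and 0.0141).

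Transmembrane chains split by direction. Col23a1 was at 626 to 715 CPM in healthy Lepr-ctrl nerves at 2 wpc and at 19.6, 40.2, 43.2, 75.6 and 81.7 CPM in injured ones. It fell by 3.65 ± 0.27 (adjusted p = 1.21e-13), and its change in Lepr-cKO was −3.88 ± 0.27. Col17a1, the hemidesmosome collagen of skin, rose by 2.57 ± 0.45 (adjusted p = 7.9e-06) from 1.03 to 1.61 CPM to 3.77 to 11.1 CPM. It rose by 2.36 ± 0.42 in Lepr-cKO, where the injured nerves ran from 2.45 through a median of 2.79 to 13.0 CPM. Col13a1 never exceeded 57 counts, and its calls in 3 of the 4 comparisons were each lost when any of 1 to 4 single libraries was left out (highest adjusted p from 0.052 to 0.0705).

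Among the fibril-associated chains Col16a1 and Col9a1 rose while Col12a1 and Col14a1 fell in all 4 comparisons. Col16a1, an integrin ligand that links fibrils to their surroundings, was at 147.2 to 196 CPM in healthy and 662, 764, 952, 1102 and 1412 CPM in injured Lepr-ctrl nerves at 2 wpc, a rise of 2.55 ± 0.18 (adjusted p = 5.36e-14). In Lepr-cKO it rose by 2.14 ± 0.17. At 4 wpc its rise in Lepr-ctrl was 1.01 ± 0.18, at the edge of the fold threshold, and the call was lost (0.91 at the least) when any of 6 libraries was left out, namely healthy or injured nerves of WT-170 and WT-171, healthy WT-178Snc and injured WT-173Sni. Col12a1 and Col14a1, which bind the surface of type I fibrils, fell by 1.90 ± 0.27 and 1.62 ± 0.22 in Lepr-ctrl at 2 wpc and by 2.89 ± 0.31 and 2.42 ± 0.25 at 4 wpc. Col14a1 was at 232 to 287 CPM in healthy and 30.1, 92.8, 94.9, 97.1 and 109.9 CPM in injured nerves at 2 wpc, with the lowest value again in nerve SLRKO2wpc144i.

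The chains of type IX collagen form a heterotrimer, and their genes had values of both signs. Col9a1 rose by 2.37 ± 0.35 in Lepr-ctrl at 2 wpc, from 0.516 to 0.899 CPM to 1.61 to 6.05 CPM, while Col9a2 fell by 1.26 ± 0.29 (adjusted p = 0.00032) from 31.5 to 59.6 CPM to 7.93 to 36.6 CPM. Col9a3 had 0.92 ± 0.22 (adjusted p = 0.000447), short of the fold threshold, and with the animal as a replicate block it passed (1.03, adjusted p = 0.000121). Of the Col9a3 exon bases 6.1% are shared with the antisense gene Tcfl5, and how strand was treated in counting is not given in the sources used here.

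Beaded filament chains fell into the abundant Col6a1, Col6a2 and Col6a3, which were not called in any of the 4 comparisons, and the rare Col6a4, Col6a5 and Col6a6. Col6a5 counts were 0, 0, 9, 14 and 17 in the healthy Lepr-ctrl nerves at 2 wpc and 299 to 452 in the injured ones, or 9.77 to 16.6 CPM. It rose by 5.87 ± 0.95 (adjusted p = 2.23e-06), and by 4.15 ± 0.76 in Lepr-cKO, 6.19 ± 1.03 in Lepr-ctrl at 4 wpc and 3.42 ± 0.82 in Lepr-cKO at 4 wpc. It is the largest rise among the members in each of the 4 comparisons. The window before its start, chr9:105960644-105960893 on the minus strand of GRCm38.p6, is shown for that reason, with 1 STAT match and 1 GC box in capitals.
Col6a5: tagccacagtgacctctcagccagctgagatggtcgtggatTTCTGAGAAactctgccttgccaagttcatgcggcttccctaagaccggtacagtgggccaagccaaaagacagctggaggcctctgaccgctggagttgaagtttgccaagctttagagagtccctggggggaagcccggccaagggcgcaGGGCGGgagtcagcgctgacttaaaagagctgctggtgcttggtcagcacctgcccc
Healthy Lepr-cKO nerves held 0.128 to 4.46 CPM of Col6a5 at 2 wpc and 0.110 to 4.92 CPM at 4 wpc, above the 0.434 and 0.226 CPM of the highest healthy Lepr-ctrl nerve in some of them. The genotype difference in healthy nerves was 2.37 and 3.35 on the log2 scale (adjusted p = 1 at both times, unadjusted p = 0.0131 and 0.00239). The summed adipocyte markers of healthy nerves reached 165 CPM in Lepr-cKO against 0.767 CPM in Lepr-ctrl at 2 wpc, and their part in this gene's level was not tested. Col6a6 was called higher in 3 of the 4 comparisons but had at most 28 counts in a library, and Col6a4 lost its calls with the animal as a replicate block (2.43, adjusted p = 0.0561 in Lepr-ctrl at 2 wpc, 1.40 and 0.161 in Lepr-cKO, and 2.43 and 0.0847 in Lepr-cKO at 4 wpc).

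Of the remaining classes, Col7a1, whose product anchors epithelial basement membranes, rose in all 4 comparisons. It was at 25.8 to 46.9 CPM in healthy and 73.4 to 247 CPM in injured Lepr-ctrl nerves at 2 wpc, a rise of 2.21 ± 0.28 (adjusted p = 2.03e-08). Col18a1, a heparan sulfate proteoglycan that yields endostatin, rose by 1.32 ± 0.25 and 1.22 ± 0.23 at 2 wpc and was not called at 4 wpc. The second call was lost without nerve SLRKO2wpc135i (0.91). Its multiplexin relative Col15a1 was called nowhere. Col28a1, a collagen found at Schwann cell basement membranes, rose by 1.49 ± 0.21 and 1.20 ± 0.19 at 2 wpc. Its rise of 1.08 ± 0.22 in Lepr-cKO at 4 wpc was 0.98 with the animal as a replicate block and 0.90 without nerve KO-169Sni. Col22a1 rose at 2 wpc in Lepr-ctrl (1.92, adjusted p = 0.00984) and missed with the block (1.70, adjusted p = 0.0613). Col11a2, a fibrillar chain, rose by 1.42 ± 0.28 in Lepr-ctrl at 2 wpc and by 1.00 in Lepr-cKO at 4 wpc (0.98 with the block).

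To ask whether chains moved in step, ratios were compared in 7 pairs, 6 of them of chains of 1 collagen type and the other Col3a1/Col1a1, whose products are separate molecules of the same fibrils. The tests were exact two-sided permutation tests of the log2 ratio of CPM per kb, with p adjusted over 56 tests and without the pairing by animal, for which the pairs are too few to pass in an exact test. Of these 20 had an adjusted p below 0.05, all of them injured against healthy. The smallest p such tests allow is 0.0022 for 6 against 5 nerves, 0.0079 for 5 against 5 or 4 and 0.0286 for 4 against 4. The Col8a1/Col8a2 log2 ratio was −2.60 ± 0.55 (SD, n = 5) in healthy and 3.31 ± 0.76 (n = 5) in injured Lepr-ctrl nerves at 2 wpc, a difference of 5.91 (exact permutation, adjusted p = 0.0261). The differences were 6.19, 5.67 and 5.41 in Lepr-cKO at 2 wpc and in Lepr-ctrl and Lepr-cKO at 4 wpc, and no group overlapped its counterpart.

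Type I collagen is made of 2 chains of Col1a1 for each chain of Col1a2. The level of the Col1a1/Col1a2 ratio depends on the exon lengths used, and its change between groups does not. The Col1a1/Col1a2 log2 ratio rose from 0.19 ± 0.14 to 1.04 ± 0.32 in Lepr-ctrl at 2 wpc (exact permutation, adjusted p = 0.0261) and by 0.68 in Lepr-cKO, and by 0.33 and 0.49 at 4 wpc. The injured and healthy nerves did not overlap in any of these. The Col6a1/Col6a2 ratio rose by 0.80 and 0.84 at 2 wpc and by 0.39 in Lepr-cKO at 4 wpc (adjusted p = 0.0635 for the 0.20 in Lepr-ctrl, exact permutation). In that last comparison the ratio was higher in the injured nerve of all 4 animals that gave both nerves. Col5a1/Col5a2 fell by 0.50, 0.55, 0.59 and 0.47 in the 4 comparisons. Col4a1/Col4a2 fell by 0.42, 0.33 and 0.22, with −0.03 in Lepr-ctrl at 4 wpc. Col3a1/Col1a1 rose at 4 wpc by 0.57 and 0.62, and its differences at 2 wpc were 0.09 and 0.22 (exact permutation, adjusted p = 0.892 and 0.527). Col6a3/Col6a1 passed in no comparison. Other settings left out single libraries or changed the prior count or the length scaling. In Lepr-ctrl at 2 wpc Col5a1/Col5a2 and Col4a1/Col4a2 each missed in 5 of 12 of these (exact permutation, highest adjusted p = 0.111 and 0.0847). The other ratios that passed at 2 wpc missed in 0. At 4 wpc every ratio that had passed missed in 6 of 11 settings in Lepr-ctrl and 8 of 11 in Lepr-cKO. With 1 library left out at 4 wpc the Col1a1/Col1a2 and Col3a1/Col1a1 differences stayed positive in both genotypes, but many no longer passed, and with 4 nerves left in each group the design limits the p. Whether the ratios changed more at one time than the other was not tested.

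**Figure D4:**
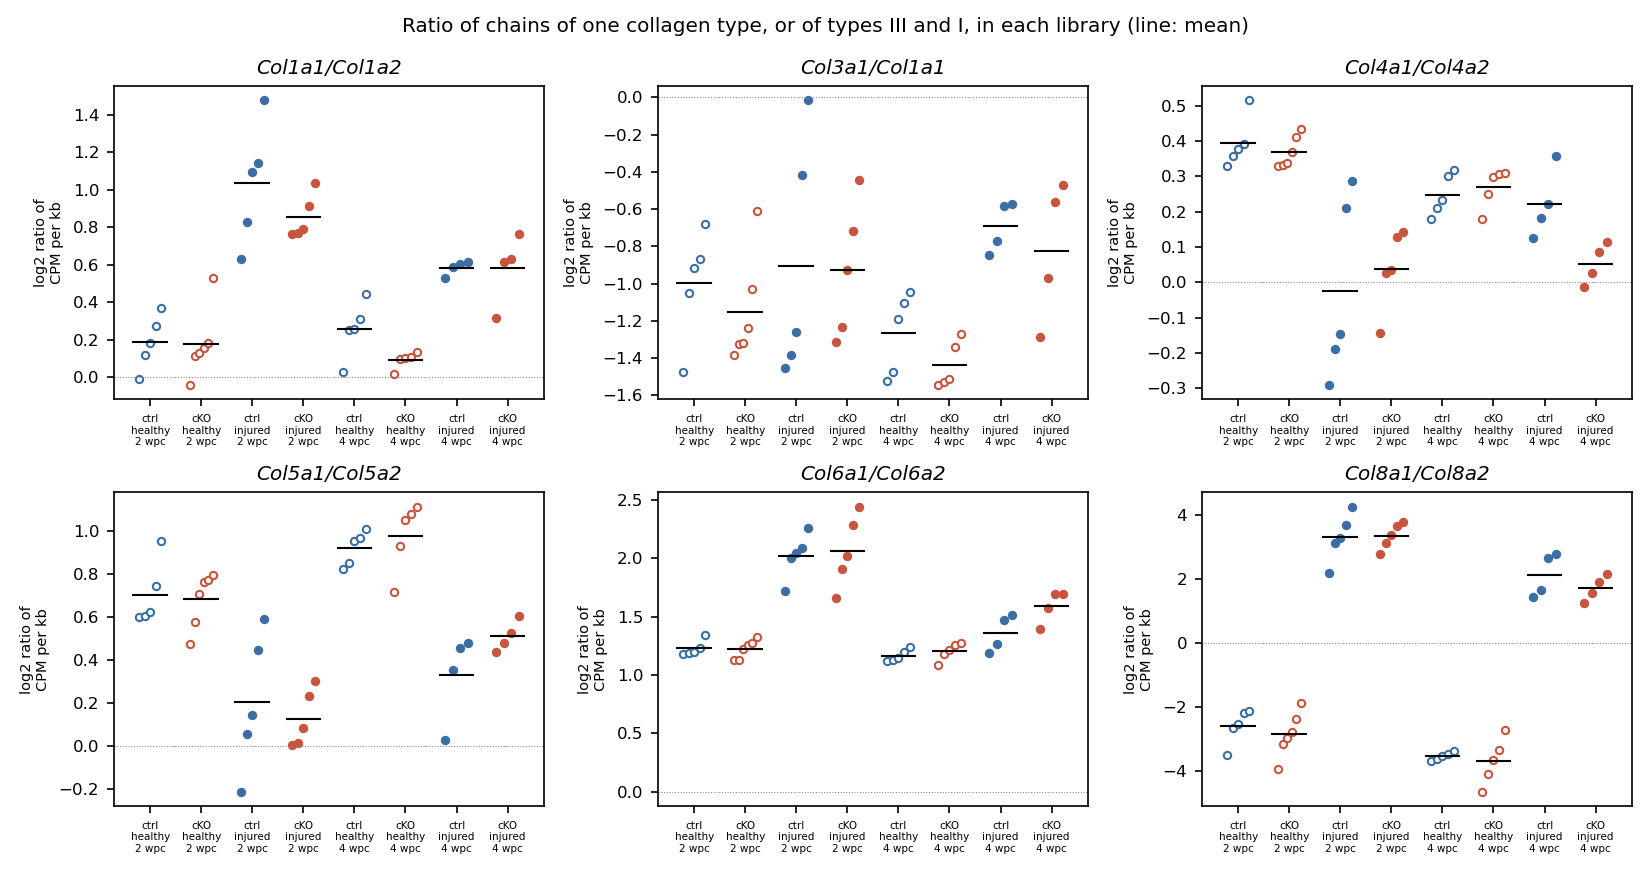
Log2 ratio of CPM per kb (vertical axes) of 6 of the 7 chain pairs in each library, by genotype, nerve and time, with open points for healthy and filled points for injured nerves and lines at the mean. Col8a1/Col8a2 lies below 0 in all healthy and above 0 in all injured nerves, and Col1a1/Col1a2 is higher in injured nerves of every genotype and time.

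The change of the injury response between 2 and 4 wpc was taken as the difference of the log2 fold changes, so that drift of the healthy nerves is removed. In Lepr-ctrl 9 of 41 members were called, 1 higher and 8 lower, against 4.42% of all tested genes. In Lepr-cKO 3 of 41 were called, all higher, against 1.42% of all. The 8 lower in Lepr-ctrl were Col16a1 (−1.54 ± 0.25, adjusted p = 0.000322), Col5a2 (−1.26 ± 0.24), Col5a1 (−1.37 ± 0.26), Col27a1 (−1.27 ± 0.30), Col18a1 (−1.45 ± 0.36), Col11a1 (−1.92 ± 0.48), Col9a3 (−1.10 ± 0.32) and Col1a1 (−1.27 ± 0.39, adjusted p = 0.0325). The values of these 8 in Lepr-cKO were −0.69, −0.42, −0.35, −0.88, −0.65, −1.38, 0.34 and −0.07, and none of these was called. The call of Col1a1 was lost (highest adjusted p = 0.0763) without any of healthy nerves WT-168Snc and SLRKO2wpc120c and injured nerves WT-170Sni, WT-178Sni, SLRKO2wpc123i and SLRKO2wpc147i. That of Col9a3 was lost (highest adjusted p = 0.0751) without any of injured nerves WT-171Sni, WT-178Sni, SLRKO2wpc123i and SLRKO2wpc147i. With the animal as a replicate block Col12a1 (−1.25, adjusted p = 0.00561), Col14a1 (−1.10) and Col28a1 (−1.11) were called as well.

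The response of Col24a1 was called higher at 4 than at 2 wpc in both genotypes. Its injured nerves stood at 70.6, 70.6, 79.9 and 127 CPM in Lepr-ctrl and 41.1, 51.5, 61.9 and 128.2 CPM in Lepr-cKO at 4 wpc, above all injured nerves at 2 wpc (at most 31.1 CPM) and below all healthy ones (at least 225 CPM). The response changed by 2.06 ± 0.44 in Lepr-ctrl (adjusted p = 0.00274) and 1.98 ± 0.43 in Lepr-cKO (adjusted p = 0.00885). Without nerve KO-176Sni the Lepr-cKO change of Col24a1 was 1.498 (adjusted p = 0.0672), and that of Col9a2 was 1.32 (0.117). The Col9a2 call was also lost without healthy nerve KO-177Snc and without injured nerve KO-175Sni. The response of Col23a1 rose by 1.73 ± 0.35 in Lepr-cKO (adjusted p = 0.0043) with 0.79 ± 0.37 in Lepr-ctrl, and Col9a2 by 1.64 ± 0.41 (adjusted p = 0.0245) with 0.63 in Lepr-ctrl. The injured levels alone, with no healthy nerves, gave 8 calls in Lepr-ctrl (2 higher, 6 lower, against 7.33% of all genes) and 5 in Lepr-cKO (4 higher, 1 lower, against 5.29%). No member was called between healthy nerves at 4 and 2 wpc by edgeR or DESeq2 (0.174% and 0.119% of all genes), with 5 and 4 members at an unadjusted p below 0.05 (16.1% and 9.92% of all genes). Animals at 2 and 4 wpc were different animals, and time cannot be told apart from any other difference between these sets.

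**Figure D5:**
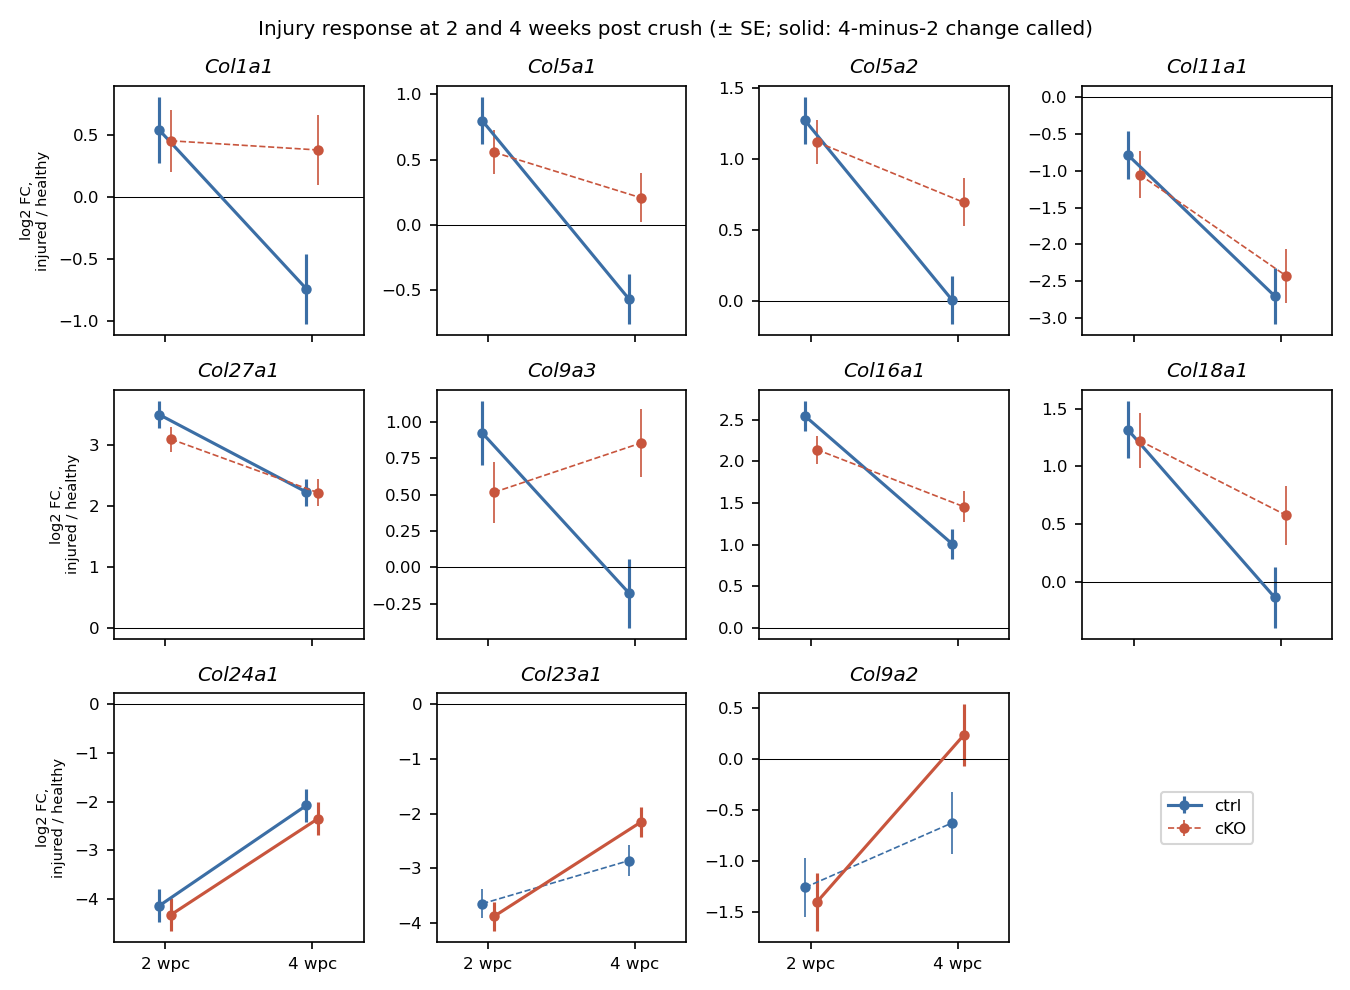
Log2 fold change of injured over healthy nerve (vertical axes, ± SE) at 2 and 4 wpc for the 11 members whose response changed between these times in at least 1 genotype, with Lepr-ctrl in blue, Lepr-cKO in red and solid lines where the change was called. Col1a1 goes from 0.54 to −0.74 in Lepr-ctrl and from 0.45 to 0.38 in Lepr-cKO, and Col24a1 goes from −4.14 to −2.08 and from −4.32 to −2.35.

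Lepr-cKO was compared with Lepr-ctrl to ask whether loss of the leptin receptor in Schwann cells alters these genes. No member was called in any of these comparisons by edgeR or by DESeq2. In injured nerves at 2 wpc 0.569% of all genes were called (105 genes, against 22 by DESeq2, 0 with these groups fitted alone and 207 with no expression filter). All 105 were higher in Lepr-cKO, whose injured nerves include SLRKO2wpc126i with its high skeletal muscle markers. The part of that nerve in these calls was not tested. The members ran from −0.38 (Col11a2) to 1.55 (the rare Col6a6) in this comparison, and 30 of 41 log2 fold changes were negative. Their median was −0.131, against 0.005 over all tested genes, and the signs were not tested. By unadjusted p 1 member, Col5a3, was below 0.05 there (−0.37, adjusted p = 0.594), as were 6.44% of all genes. In healthy nerves 0.00542% of all genes were called at either time, and 2 and 1 members were below an unadjusted p of 0.05 (1.2% and 1.88% of all genes). Of the 41 log2 fold changes in healthy nerves 21 were negative at 2 wpc and 31 at 4 wpc. Their medians were −0.016 and −0.081, against 0 and 0.005 over all tested genes.

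In injured nerves at 4 wpc no member passed both thresholds. Of all genes 0.45% did (83 genes, against 129 by DESeq2, 0 with these groups fitted alone and 40 with no expression filter). Here 34 of 41 log2 fold changes were positive, with a median of 0.53 against 0.03 over all tested genes, and 14 members (34.1%, against 19.9% of all genes) had an unadjusted p below 0.05. Col9a3 was at 13.1, 14.2, 15.5 and 19.8 CPM in Lepr-ctrl and 15.5, 32.1, 35.6 and 37.8 CPM in Lepr-cKO. Its difference of 0.95 ± 0.25 had an adjusted p of 0.0473 and was short of the fold threshold. Col14a1 followed with 0.91 ± 0.24 (adjusted p = 0.0503), then Col5a1 with 0.69 ± 0.20 (0.0625) and Col1a1 with 0.90 ± 0.30 (0.0886). Col1a1 was at 753, 836, 1053 and 1240.3 CPM in Lepr-ctrl and 802, 1382, 1386 and 3696 CPM in Lepr-cKO, and the groups overlapped. The highest of these was nerve KO-169Sni and the lowest Lepr-cKO value nerve KO-177Sni. Without nerve KO-177Sni there were 4 calls (Col9a3 1.15, Col1a1 1.13, Col1a2 1.08 and Col26a1 1.06), and there were 0 when any other of the 8 injured nerves was left out.

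The same nerves differed in other measures. The Schwann cell marker sum was 25162 to 34779 CPM in Lepr-ctrl and 30896 to 78794 CPM in Lepr-cKO, and the mitochondrial share was 17.2 to 21.6% and 2.95 to 20.2%. The macrophage sum was 359 to 673 CPM in Lepr-ctrl and 219 to 382 CPM in Lepr-cKO, the perineurial sum 505 to 598 and 512 to 932 CPM, and the fibroblast sum 576 to 1076 and 456 to 772 CPM. Nerve KO-177Sni had the lowest Schwann marker sum and the highest mitochondrial share of the Lepr-cKO nerves, and nerve KO-169Sni the reverse. Their part in the collagen values was not tested. The difference between genotypes in the injury response itself was called for no member by edgeR or DESeq2 (0% of all genes at both times), with 1 member below an unadjusted p of 0.05 at 2 wpc and 13 at 4 wpc (4.32% and 10.9% of all genes). The lowest p at 4 wpc was that of Col9a3 (1.03, adjusted p = 0.384). A comparison added after seeing the data asked whether the change from 2 to 4 wpc differed between genotypes. It too called none (0% of all genes), with 7 members below an unadjusted p of 0.05 (7.84% of all genes) and a lowest adjusted p of 0.575.

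Collagen chains pass through hydroxylases and chaperones in the cell and through propeptide proteases and crosslinkers outside it. Of 18 modification and folding genes 1 rose and 3 fell in Lepr-ctrl at 2 wpc, where 19.8% of all tested genes rose and 14.3% fell, so the list was below the background for rises and near it for falls. The prolyl hydroxylases P3h2 (−3.53 ± 0.29), P4ha3 (−3.39 ± 0.28) and P4ha1 (−1.79 ± 0.17) fell and the chaperone Fkbp10 rose (1.23 ± 0.15). The same 3 hydroxylases fell in the other 3 comparisons. P4ha3 was higher in Lepr-cKO than Lepr-ctrl injured nerves at 4 wpc (1.43 ± 0.36, edgeR adjusted p = 0.0418). Its levels there were 1.54 ± 0.68 CPM in Lepr-cKO and 0.579 ± 0.470 CPM in Lepr-ctrl (SD, n = 4 each), so the call rests on few counts. With these groups fitted alone 0 genes were called in this comparison. Of 13 propeptide and crosslinking genes 4 rose and 2 fell in Lepr-ctrl at 2 wpc (19.8% and 14.3% of all genes). Pcolce2, an enhancer of C-propeptide removal, rose by 4.04 ± 0.61, the C-proteinase Bmp1 by 2.55 ± 0.24 and the N-proteinase Adamts14 by 1.73 ± 0.31. The lysyl oxidase Lox fell by 4.43 ± 0.34 and the proteinase Tll1 by 3.24 ± 0.24. Members of this list therefore went both ways, Bmp1 and Tll1 included. The response of Lox changed by 2.09 ± 0.43 from 2 to 4 wpc in Lepr-ctrl and by 2.44 ± 0.42 in Lepr-cKO.

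Of 10 collagen receptor genes 9 were tested, and in Lepr-ctrl at 2 wpc 2 rose and 2 fell (19.8% and 14.3% of all genes). The leukocyte inhibitory receptor Lair1 rose by 3.24 ± 0.24 and the integrin chain Itga10 by 1.33 ± 0.23. The fibroblast integrin chain Itga11 fell by 2.57 ± 0.44 and the discoidin receptor Ddr1 by 1.10 ± 0.22. At 4 wpc, named after their values were seen, Ddr2, the discoidin receptor of mesenchymal cells, rose by 1.96 ± 0.17 in Lepr-ctrl and 1.28 ± 0.16 in Lepr-cKO, and the endocytic receptor Mrc2 by 1.33 ± 0.42 and 1.65 ± 0.42. Lair1 is a leukocyte gene, and the summed macrophage markers were 359 to 673 CPM in injured against 54.0 to 93.6 CPM in healthy Lepr-ctrl nerves at 4 wpc. The part of macrophages in the Lair1 values was not tested.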

How the data were processed

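RNA of 39 endoneurium samples was sequenced as single reads from TruSeq libraries per the study's methods, and the authors deposited 1 table of raw gene counts per sample. The submitters' processing notes name bcl2fastq 2.20.0.422, STAR 2.5, featureCounts 1.5.0-p1 and GRCm38. Handling of strand and of reads that map to several genes is not given in the sources used here, so antisense and paralogous genes may share reads.

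From the deposited counts, edgeR 4.0.16 (R 4.3.3, limma 3.58.1) fitted all 39 libraries in 1 quasi-likelihood model with a term per group. TMM scaling was used and genes were kept by filterByExpr (minimum count 10, total 15), which left 18442 of 55573. P-values were Benjamini-Hochberg adjusted over all of them. Calls needed an adjusted p below 0.05 and a log2 fold change beyond 1, the study's own thresholds. CPM used TMM effective library sizes, and exon lengths came from GENCODE M21. Ratios used CPM per kb with a prior of 2 counts and exact permutation tests. The fit was checked on simulated counts in which few genes changed, so the check does not cover the broad shifts seen after crush. Alternatives were DESeq2 1.42.0, other scalings and filters, the groups compared alone, the animal as a replicate block, and leaving out single libraries in turn. Each library was left out once except the 6 healthy Lepr-cKO nerves at 2 wpc.

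Groups came from the sample labels. Animal numbers pair the nerves of 17 animals by design, and deviations from the group means of the paired nerves correlated from −0.064 to 0.262 over 18442 genes (11 of 17 pairs above 0.1). The members, the accompanying gene lists and the rule for named genes were chosen with earlier results of these data known. The rule took the 2 members with the highest length-scaled level in each class, up to 3 per direction with the largest changes among those called after injury in Lepr-ctrl, and members called between genotypes or times (the lowest p where none was). Other members were named to complete a class or after their values were seen. Promoter windows are RefSeq's (GRCm38.p6). At 0.0682 to 0.282 CPM, 3 counts mark the detection floor, which covers counting error only. No 2 libraries held identical counts.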

Additional observations from a re-analysis of the deposited data

Results flagged for a closer look

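Within groups of 4 to 6 nerves, 1 library lay far from the rest by Dixon's test in 19 of 232 gene and group combinations, where chance gives about 1 in 20. Several fell on the same libraries. Injured nerve SLRKO2wpc144i (Lepr-ctrl, 2 wpc) was lowest for Col14a1 (30.1 CPM), Col4a2 (112 CPM) and Col1a2 (813 CPM). Healthy nerve SLRKO2wpc123c of the same genotype and time was highest for Col1a2 (3019 CPM), Col6a1 (287 CPM) and Col6a2 (239 CPM), and healthy nerve SLRKO2wpc147c was highest for Col23a1 (715 CPM). In Lepr-cKO at 2 wpc injured nerve SLRKO2wpc135i was highest for Col18a1 (937 CPM) and lowest for Col23a1 (17.5 CPM), and injured nerve SLRKO2wpc125i stood apart for Col5a1 (819 CPM).

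At 4 wpc injured Lepr-cKO nerve KO-169Sni was highest for Col18a1 (705 CPM), Col6a1 (366 CPM) and Col6a2 (215 CPM), and injured nerve KO-177Sni was lowest for Col16a1 (476 CPM). Healthy nerve KO-177Snc was lowest for Col4a1 (1091 CPM) and Col4a2 (782 CPM). In Lepr-ctrl injured nerve WT-178Sni was highest for Col24a1 (127 CPM), healthy nerve WT-173Snc for Col28a1 (175.4 CPM) and healthy nerve WT-168Snc for Col9a2 (70.2 CPM).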

How the results depend on the processing

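Of 117 calls of members 84 were kept under every alternative that tested the gene, 33 were lost under at least 1 and 0 reversed. A call on a gene that an alternative did not test was not counted as lost. DESeq2 gave the same counts of members in the 4 injury comparisons. Requiring at least 10 counts in every library left fewer members tested and gave 9, 5 and 7 higher with injury in Lepr-ctrl at 2 wpc, Lepr-ctrl at 4 wpc and Lepr-cKO at 4 wpc. Adjusted p alone gave 1 call between genotypes in injured nerves at 4 wpc and 15 between times in injured Lepr-ctrl nerves. Fitting the compared groups alone gave 5 calls between times in injured Lepr-ctrl and 1 in injured Lepr-cKO nerves. Without mitochondrially encoded genes the collagen share of counts in injured Lepr-ctrl nerves at 4 wpc was 1.00% (0.790% with them). The causes were not tested.

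With single libraries left out, calls higher and lower with injury ranged from 13 to 15 and 9 to 12 (Lepr-ctrl, 2 wpc), 7 to 9 and 11 to 14 (Lepr-ctrl, 4 wpc), 10 to 14 and 9 to 13 (Lepr-cKO, 2 wpc), and 10 to 14 and 9 to 9 (Lepr-cKO, 4 wpc). Calls between genotypes ranged from 0 to 4 in injured nerves at 4 wpc (4 without nerve KO-177Sni) and were 0 elsewhere. Calls between times ranged from 5 (without injured nerve SLRKO2wpc123i) to 11 (without SLRKO2wpc144i) in injured Lepr-ctrl and from 4 to 6 in injured Lepr-cKO nerves. Calls for the change in response ranged from 7 to 12 (12 without SLRKO2wpc144i) in Lepr-ctrl and from 1 (without injured nerve KO-176Sni) to 5 (without KO-169Sni) in Lepr-cKO. The ratio tests passing ranged from 13 to 21. None of these ranges covers the 6 healthy Lepr-cKO nerves at 2 wpc, which were always kept.

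With the animal as a replicate block, calls higher and lower were 13 and 9 (Lepr-ctrl, 2 wpc), 9 and 14 (Lepr-ctrl, 4 wpc), 11 and 12 (Lepr-cKO, 2 wpc) and 9 and 9 (Lepr-cKO, 4 wpc), with 12 and 3 for the change in response in Lepr-ctrl and Lepr-cKO and 0 for the genotype differences. Beyond the calls given beside their genes, Col4a5 was gained in Lepr-cKO at 2 wpc (−1.02). Depth limits the calls on rare chains, such as Col6a6 (at most 28 counts in a library) and Col13a1 (57).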
